A study of Mus musculus with 15 samples.

Results

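The genes described here are 10 components of the circadian clock: the activators Clock, Npas2 and Arntl, the repressors Per1, Per2, Per3, Cry1 and Cry2, the nuclear receptor gene Nr1d1 and the output gene Dbp. They were chosen by name, as the rows of the deposited count table whose symbol is 1 of these 10, out of 35976 genes listed. All 10 had enough counts to pass edgeR's filter on low counts in both fits described here. The samples were nuclear RNA from the ventral tegmental area, a midbrain region that holds dopamine neurons, of male mice aged 8 to 12 weeks, and were read by short-read sequencing. Every group, controls included, was heterozygous DAT-Cre (B6.SJL-Slc6a3tm1.1(cre)Bkmm/J, with Cre recombinase driven by the dopamine transporter gene) and carried AAV5-DIO-KASH-HA in the ventral tegmental area, a virus that puts an HA tag on the nuclear envelope of cells with Cre.

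Nuclei with the HA tag made up the dopaminergic (DA) population and nuclei without it the non-dopaminergic (non-DA) population, and punches of 2 mice were pooled for each library. The food-trained group had lever-pressed for food over 7 days and had received no cocaine (4 DA and 4 non-DA libraries). The maintenance group then took intravenous cocaine once a day for 1 hour (3 DA libraries), first 5 days of 0.3 mg/kg per infusion and afterwards 10 days of 1.0 mg/kg. The abstinence group, which the labels call craving, took the same cocaine and then stayed in the home cage for 21 days (4 DA libraries). Stage was therefore tied to age, catheter surgery and time since the last session, and these cannot be told apart. Lights were on from 0600 to 1800 hours in a cycle of 12 hours of light and 12 of dark, and the time of day at which the mice were killed is not given in the sources used here.

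The clock is a feedback loop of transcription that runs in most cells of the body. CLOCK, or its paralogue NPAS2, pairs with BMAL1 (the product of Arntl) and switches on genes that carry E-box motifs, among them the Per and Cry genes, Nr1d1 and Dbp. PER and CRY proteins return to the nucleus and inhibit the activators, the REV-ERB receptor encoded by Nr1d1 represses Arntl, and DBP activates genes through D-box motifs. The RNA of most of these genes cycles over the day, with the Per genes, Nr1d1 and Dbp in a different phase from Arntl, so the level in a single sample depends on the time at which it was taken. In the ventral tegmental area the clock is known for links to dopamine synthesis and to responses to drugs of abuse.

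Promoter windows show how these motifs sit at the members that the results turn on: Per3 and Nr1d1, which passed the test between DA and non-DA nuclei, and Dbp, which had the lowest p between stages. RefSeq windows on GRCm38.p6, each running from 250 bases before to 50 bases after an annotated start, matched 9 of the 10 members (13 windows); Per2 had none. Each is printed 5′ to 3′ on the strand of the gene, with matches to a searched motif in capitals.
Per3 (chr4:151044616-151044915, minus strand): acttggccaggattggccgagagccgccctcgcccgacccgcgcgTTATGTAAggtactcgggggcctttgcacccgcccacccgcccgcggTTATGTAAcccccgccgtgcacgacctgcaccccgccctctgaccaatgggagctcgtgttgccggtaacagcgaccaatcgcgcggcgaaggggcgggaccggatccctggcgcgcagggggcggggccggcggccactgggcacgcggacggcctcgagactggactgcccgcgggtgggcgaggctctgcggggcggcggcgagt
Nr1d1 (chr11:98775328-98775627, minus strand): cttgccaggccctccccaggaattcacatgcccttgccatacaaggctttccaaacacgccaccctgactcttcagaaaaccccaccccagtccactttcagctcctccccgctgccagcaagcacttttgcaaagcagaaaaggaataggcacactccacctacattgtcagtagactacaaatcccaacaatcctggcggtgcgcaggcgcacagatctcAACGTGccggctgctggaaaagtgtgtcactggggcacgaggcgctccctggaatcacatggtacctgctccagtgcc
Dbp (chr7:45704997-45705296, plus strand): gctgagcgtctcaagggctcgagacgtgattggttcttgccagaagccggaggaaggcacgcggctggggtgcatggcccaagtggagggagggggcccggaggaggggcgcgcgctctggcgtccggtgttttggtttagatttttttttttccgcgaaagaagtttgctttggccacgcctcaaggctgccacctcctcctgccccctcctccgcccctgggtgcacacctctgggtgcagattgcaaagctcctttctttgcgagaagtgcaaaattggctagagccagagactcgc
The motifs were searched on both strands, and no matches overlapped in the windows of the members. The Per3 window held the D-box TTATGTAA at positions -205 and -158, a motif found in 0.938% of 32851 promoter windows of the same length. The Nr1d1 window held the E-box variant CACGTT at -28 (read on the other strand as AACGTG), which 4.68% of windows hold. In the Dbp window none of the searched letters were present. Among the other members, the canonical E-box CACGTG (7.15% of windows) was present in a window of Per1 at -166 and of Cry1 at -60, and CACGTT in those of Cry1 at -79 and Cry2 at -166. Per1 also held the second D-box form TTATGCAA (0.743% of windows) at -24. The letters AGGTCA (16.3% of windows), only a part of the ROR element, were found in windows of Per1, Clock and Arntl. The bases beside these letters were not searched, so the matches are not shown to be full ROR elements. The cyclic AMP response element TGACGTCA (1.79% of windows) was in none of the 13 windows.

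Total counts ranged from 25813697 to 59046618 per library, and no library pair held identical values. Genes with any count numbered 14841 to 18372 in the food-trained DA libraries and 22733 to 23886 in the non-DA libraries. They numbered 15805 to 17204 at maintenance and 17444 to 19750 at abstinence. Food-trained DA replicate 3 was the lowest in total counts and in genes detected. The part of this difference in the low or absent counts of sparse genes was not tested. The dopamine neuron markers (6 genes, among them Th and Slc6a3) summed to between 6352 and 12206 CPM (library-size scaled counts, corrected with edgeR's TMM factors for composition) in the food-trained DA libraries and to between 331 and 515 CPM in the non-DA libraries. The sort had no neuronal marker, and the 9 oligodendrocyte markers summed to between 9384 and 22306 CPM in the non-DA libraries against 1694 to 2768 CPM in the food-trained DA libraries. The non-DA population therefore held RNA of glia beside that of neurons, although its label names neurons. In sorted pools of this kind, fewer nuclei of a type that express a gene and less RNA of it per nucleus cannot be told apart.

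In non-DA nuclei the mean levels per kilobase of transcript (CPM per kb) placed Per3 highest at 47.9 ± 9.86 (SD, n = 4), followed by Cry2 at 28.1, Dbp at 21.7, Nr1d1 at 15.3 and Clock at 11.4 CPM per kb. Per2 at 10.9, Arntl at 8.57, Per1 at 8.31 and Cry1 at 6.60 CPM per kb came next, and Npas2 was lowest at 2.09 CPM per kb. Steps between neighbours were smaller than the larger SD of the pair for Cry2 and Dbp and for each step from Clock to Cry1. In food-trained DA nuclei Dbp was highest at 25.9 ± 9.92 CPM per kb (SD, n = 4), with Per3 at 18.4 and Cry2 at 15.3, and these 3 differed by less than that spread from one neighbour to the next. Below Cry2, the levels of Clock (8.84), Cry1 (4.93), Per1 (4.77), Arntl (4.32), Nr1d1 (3.32) and Per2 (3.30 CPM per kb) each lay within the larger SD of their neighbour. Npas2 was lowest there too, at 0.180 CPM per kb. In the maintenance libraries Per3 (25.1) led Clock (13.6) and Nr1d1 (10.6), and Dbp was the fifth at 7.496 CPM per kb. In the abstinence libraries Per3 (18.6), Cry2 (17.996) and Dbp (17.6 CPM per kb) were level with each other within their spread.

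**Figure D1:**
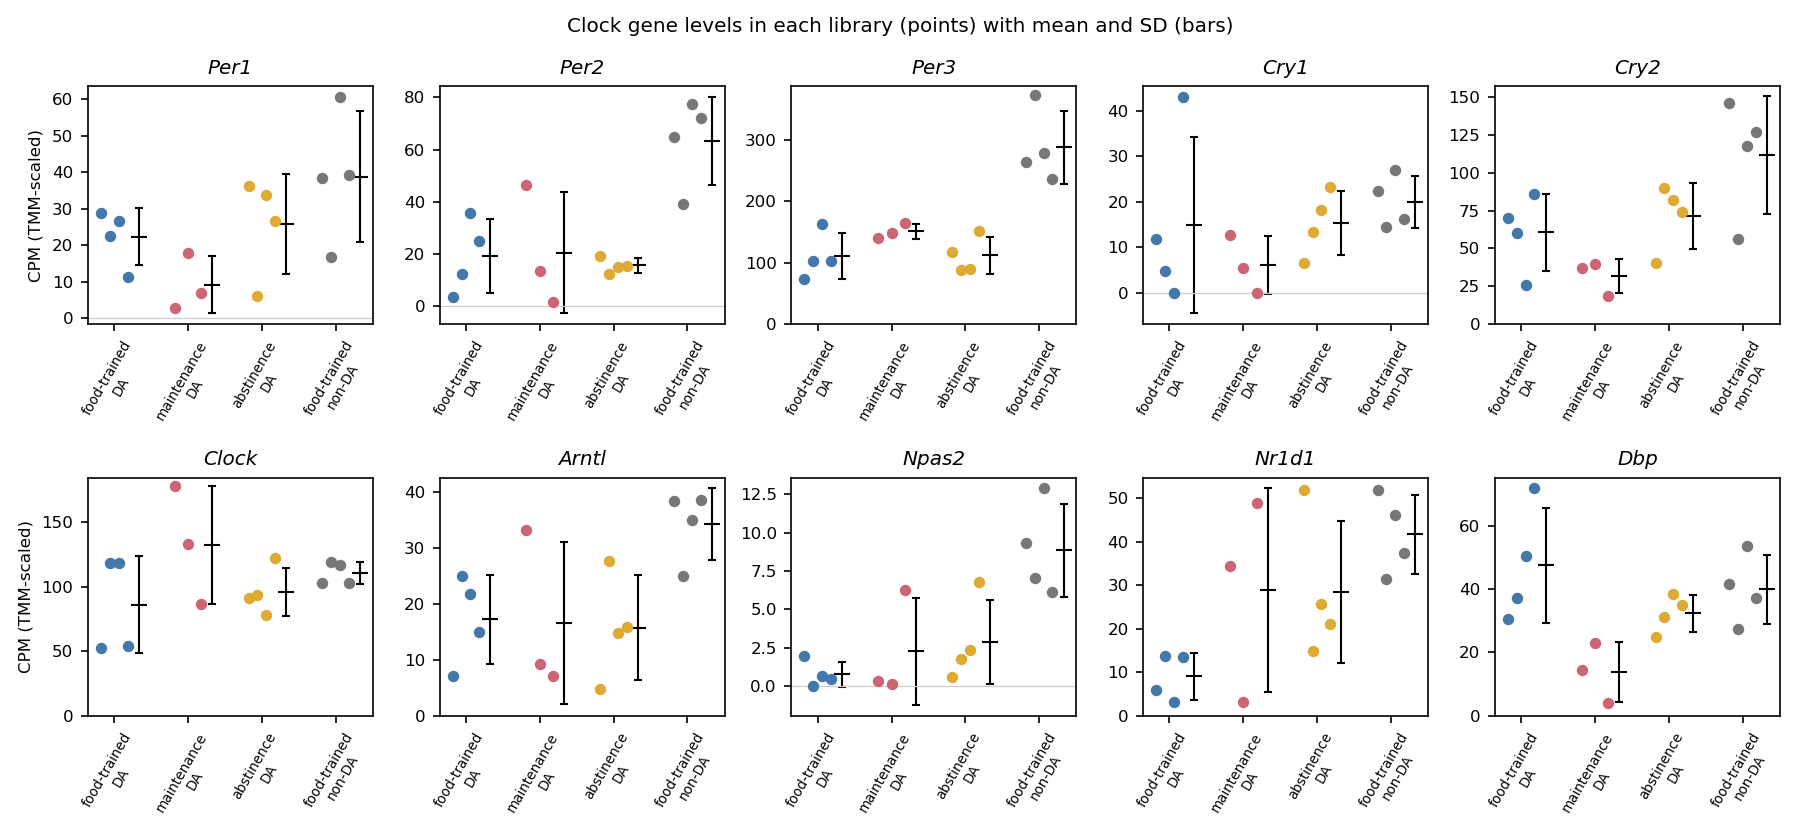
Level of each clock gene in every library, in CPM scaled by TMM factors (vertical axes, 1 panel per gene and a separate scale for each). Points are libraries in order of replicate number within a group, and bars give the mean and SD of the group. The 4 non-DA points for Per2, Per3, Npas2 and Nr1d1 lie above all food-trained DA points, and the 3 maintenance points for Dbp lie below all food-trained and abstinence points.

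The first comparison set DA against non-DA nuclei of food-trained mice, the populations that differ by the HA tag. Of the 10 clock genes, 2 were lower in DA nuclei (Per3 and Nr1d1) and 0 were higher at an adjusted p under 0.05 (edgeR's quasi-likelihood test, adjusted over all genes by Benjamini and Hochberg), the threshold used throughout. Of all 19786 genes tested, 12.8% passed in either direction, 9.17% lower and 3.63% higher in DA nuclei. The lower genes were 71.6% of these calls, 61.0% in the DESeq2 test, 61.2% in a fit of all 15 libraries, 46.7% with the replicate block and 44.2% among the calls when at least 10 counts in every library were required. Over all genes the median difference on the log2 scale was 0.05 with that last filter and -0.60 with the block. An unadjusted p under 0.05 was reached by 5 members (Per2, Per3, Arntl, Npas2 and Nr1d1) and by 24.3% of all genes. The estimate was negative for 9 of the 10 clock genes, against 58.3% of all genes, and the median log2 fold change was -0.92 for the clock genes against -0.21 for all genes tested. Between the groups, 4 members did not overlap and were lower in DA nuclei (Per2, Per3, Npas2 and Nr1d1), which was the case for 19.7% of all genes. The DESeq2 test called those 4 members, and 20.7% of the 18692 genes to which it gave an adjusted p. Over the same libraries the glial marker sums moved too: the 5 astrocyte markers summed to 374 to 732 CPM in DA against 1085 to 2553 CPM in non-DA nuclei, and the 5 microglial markers to 239.5 to 388 against 834 to 1223 CPM. At the edgeR threshold, 7 of 9 oligodendrocyte, 2 of 5 astrocyte and 4 of 5 microglial markers were lower in DA nuclei, and Olig2 and Tmem119 were at 0 in 2 and 1 of the 4 DA libraries. The oligodendrocyte precursor markers summed to 0 to 21.7 CPM in DA against 110 to 172 CPM in non-DA nuclei. For the vascular markers the sums were 0 to 41.2 against 68.2 to 84.0 CPM. The GABA neuron sums (161 to 220 against 192 to 262 CPM) and glutamate neuron sums (160 to 631 against 381 to 645 CPM) overlapped. The part of glia and of these other cell types in the differences of the clock genes was not tested.

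Among the activators, Clock (chr5:76209868-76305603 on GRCm38.p6), whose protein is a DNA-binding partner of BMAL1, did not pass the test. Its values in replicates 1 to 4 were 52.7, 118.7, 118.7 and 54.3 CPM in DA nuclei and 103.2, 119.6, 116.7 and 103.2 CPM in non-DA nuclei. The DA libraries formed a low pair and a high pair, the high pair within the non-DA range, and the log2 fold change was -0.35 (SE 0.31, 95% interval -1.04 to 0.34, adjusted p = 0.570 in edgeR). Leaving out each library moved it between -0.55 (without DA replicate 2) and -0.18 (without DA replicate 1 or 4). Npas2 (chr1:39193702-39363240), the paralogue that can take the place of Clock, was the member with the lowest level. DA nuclei had 1.93, 0, 0.651 and 0.458 CPM of Npas2, and non-DA nuclei 9.32, 7.04, 12.9 and 6.14 CPM. Replicate 2 had no Npas2 read, which allows a level of up to 0.0854 CPM (3 counts, counting error only), and no DA library reached the non-DA range. The log2 fold change of Npas2 was -3.52 (SE 1.31, 95% interval -6.47 to -0.57), and the edgeR adjusted p of 0.128 did not pass. Without DA replicate 1 it was -4.56 (adjusted p = 0.0659 in edgeR). Without DA replicate 2, the library at 0, it was -3.11 and passed (adjusted p = 0.0314 in edgeR), as it did in the DESeq2 test (adjusted p = 0.00963). Arntl (chr7:113178471-113314126), which encodes BMAL1, had 7.12, 25.0, 21.8 and 14.97 CPM in DA nuclei and 38.4, 24.9, 35.0 and 38.6 CPM in non-DA nuclei. The groups touched only where DA replicate 2 and non-DA replicate 2 met, and the log2 fold change of -0.98 (SE 0.41) had an edgeR adjusted p of 0.180.

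Among the Per genes, which encode repressors of the loop, Per3 gave the clearest difference. Per3 (chr4:150997018-151044707) had 73.4, 102.6, 162.7 and 101.9 CPM in DA nuclei and 263.2, 372.1, 278.1 and 236.0 CPM in non-DA nuclei. The highest DA library stayed below the lowest non-DA library. The means were 110.1 ± 37.6 and 287.4 ± 59.1 CPM (SD, n = 4 each), and Per3 fell by 1.37 on the log2 scale in DA relative to non-DA nuclei (SE 0.27, 95% interval -1.98 to -0.76, adjusted p = 0.00876 in edgeR). Per3 passed in each of the 16 alternatives run, with edgeR or DESeq2 adjusted p-values from 8.34e-05 to 0.0278. Per2 (chr1:91415977-91459351) had 3.52, 12.3, 35.9 and 25.2 CPM in DA nuclei and 64.8, 39.4, 77.5 and 72.0 CPM in non-DA nuclei. The DA libraries spread over a wide range, all of it below the non-DA values. With a log2 fold change of -1.71 (SE 0.61, 95% interval -3.08 to -0.34), Per2 had an edgeR adjusted p of 0.113. Without DA replicate 3, the highest DA library, Per2 passed (adjusted p = 0.0417 in edgeR), and it passed in the DESeq2 test (adjusted p = 0.0347). Per1 (chr11:69095108-69109965) had 28.9, 22.4, 26.6 and 11.3 CPM in DA nuclei and 38.4, 16.9, 60.7 and 39.2 CPM in non-DA nuclei. Non-DA replicate 2 fell inside the DA range, and the log2 fold change of -0.79 (SE 0.44) had an edgeR adjusted p of 0.321. It was -0.46 without non-DA replicate 3.

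The 2 Cry genes encode the cryptochromes, which bind the activators together with PER proteins. Cry1 (chr10:85131700-85185054) had 11.8, 4.84, 0 and 43.0 CPM in DA nuclei and 22.3, 14.4, 26.9 and 16.3 CPM in non-DA nuclei. The DA libraries included both the lowest and the highest of the 8: replicate 3 had no read, which allows up to 0.108 CPM, while replicate 4 was above each non-DA library. The log2 fold change of -0.41 had a 95% interval from -3.30 to 2.47 (edgeR adjusted p = 0.892), so a difference in either direction was not detectable. Cry2 (chr2:92403646-92434085) had 70.3, 60.3, 25.99 and 85.9 CPM in DA nuclei and 146.1, 56.0, 117.9 and 127.1 CPM in non-DA nuclei. Only non-DA replicate 2 lay within the DA range, and the log2 fold change was -0.87 (SE 0.40, adjusted p = 0.221 in edgeR).

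Nr1d1 (chr11:98767932-98775377), which encodes the heme-binding repressor REV-ERBα, was the other member past the threshold. It had 5.93, 13.7, 3.11 and 13.4 CPM in DA nuclei and 52.0, 31.3, 46.1 and 37.4 CPM in non-DA nuclei. The groups lay far apart, with means of 9.03 ± 5.34 and 41.7 ± 9.14 CPM (SD, n = 4 each). Nr1d1 fell by 2.20 on the log2 scale in DA relative to non-DA nuclei (SE 0.50, 95% interval -3.32 to -1.07, adjusted p = 0.0179 in edgeR). The call was lost without non-DA replicate 1 (adjusted p = 0.0650 in edgeR) or without non-DA replicate 3 (0.0554), when all 15 libraries shared a fit (0.0539) and with the replicate number as a block (0.0880), and it held in 12 of the 16 alternatives. Nr1d1 shares 263 of its 3077 exon bases (8.55%) with Thra on the opposite strand, and use of strand in counting is not given in the sources used here, so reads of the pair cannot be told apart. Thra itself, a thyroid hormone receptor gene, ranged from 62.1 to 115 CPM in DA nuclei and from 125 to 169 CPM in non-DA nuclei.

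Dbp (chr7:45705100-45710203), an output gene that encodes a D-box activator, was the member whose estimate was positive. Its values were 30.7, 37.1, 50.4 and 71.9 CPM in DA nuclei and 41.6, 27.3, 53.6 and 37.3 CPM in non-DA nuclei. The ranges overlapped from 30.7 to 53.6 CPM, with DA replicate 4 above and non-DA replicate 2 below that stretch, and the log2 fold change was 0.26 (SE 0.33, 95% interval -0.48 to 1.00, adjusted p = 0.713 in edgeR). Without DA replicate 4, the highest library, the estimate was -0.01. Dbp shares 539 of its 2993 exon bases (18.01%) with Sphk2 on the opposite strand, whose level was 4.35 to 22.5 CPM in DA and 6.44 to 26.8 CPM in non-DA nuclei.

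A ratio of counts within a library does not depend on how libraries are scaled, and Nr1d1 and Dbp were set against each other in this way after their values had been seen. The ratio of Nr1d1 to Dbp counts was 0.193, 0.369, 0.0617 and 0.187 in the food-trained DA libraries and 1.25, 1.15, 0.859 and 1.00 in the non-DA libraries. The DA ratios were all below the non-DA ratios. In the maintenance libraries it was 2.39, 0.133 and 12.4, and in the abstinence libraries 2.09, 0.478, 0.667 and 0.603. The ratio was above the food-trained DA range in the 4 abstinence libraries and in 2 of the 3 maintenance libraries. Such a separation was not particular to Nr1d1. The ratio of Per3 to Dbp was 1.42 to 3.23 in food-trained DA, 5.19 to 13.6 in non-DA and 6.41 to 41.8 in maintenance libraries. At abstinence it was 2.30 to 4.73. The ratio of Arntl to Dbp overlapped between food-trained DA (0.208 to 0.676) and non-DA libraries (0.653 to 1.03). How often ratios of other genes separate these groups was not computed.

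Of 24 further clock genes tested, 4 were lower in DA than in non-DA nuclei and 0 higher (20 did not pass), with 18 negative estimates and a median log2 fold change of -0.51. Over all genes 9.17% were lower, 58.3% had a negative estimate and the median was -0.21. Among the 3 nuclear receptor genes, whose products compete at the ROR element, Rorb was lower. It averaged 15.4 ± 9.45 against 56.2 ± 9.04 CPM (SD, n = 4 each) and had a log2 fold change of -1.85 (adjusted p = 0.0434 in edgeR). Ciart, which encodes the repressor CHRONO, fell by 1.46 on the log2 scale (17.2 ± 4.16 against 47.9 ± 7.51 CPM, SD, n = 4 each, adjusted p = 0.00673 in edgeR) and passed in each of its 16 alternatives. The PAR bZIP gene Tef, a relative of Dbp, fell by 1.09 on the log2 scale (adjusted p = 0.0287 in edgeR), and Usp2, a clock-controlled deubiquitinase gene, fell by 1.56 (adjusted p = 0.0258). None of the 8 genes for kinases and ubiquitin ligases that act on PER and CRY, and neither of Arntl2 and Timeless, passed in edgeR, where 1 in each of these lists (Gsk3b and Arntl2) had an unadjusted p under 0.05. Gsk3b, a kinase gene, had a log2 fold change of 0.87 (adjusted p = 0.0600 in edgeR) and Arntl2, the paralogue of Arntl, of -1.06 (adjusted p = 0.101). The DESeq2 test called 7 of the 24 (the same 4 and Gsk3b, Arntl2 and Hlf), against 20.7% of all genes.

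The calls of Rorb, Tef and Usp2 depended on single libraries. The edgeR adjusted p of Rorb was between 0.0772 and 0.120 without DA replicate 2 or without any 1 of the 4 non-DA libraries. For Tef it was between 0.0521 and 0.0974 without DA replicate 1 or 4 or without non-DA replicate 1, 3 or 4, and for Usp2 between 0.0585 and 0.0724 without non-DA replicate 1, 2 or 3. Tef also lost its call with the GC correction (adjusted p = 0.0704 in edgeR) and in a fit of all 15 libraries (0.0554). Ciart kept its call without any single library.

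**Figure D2:**
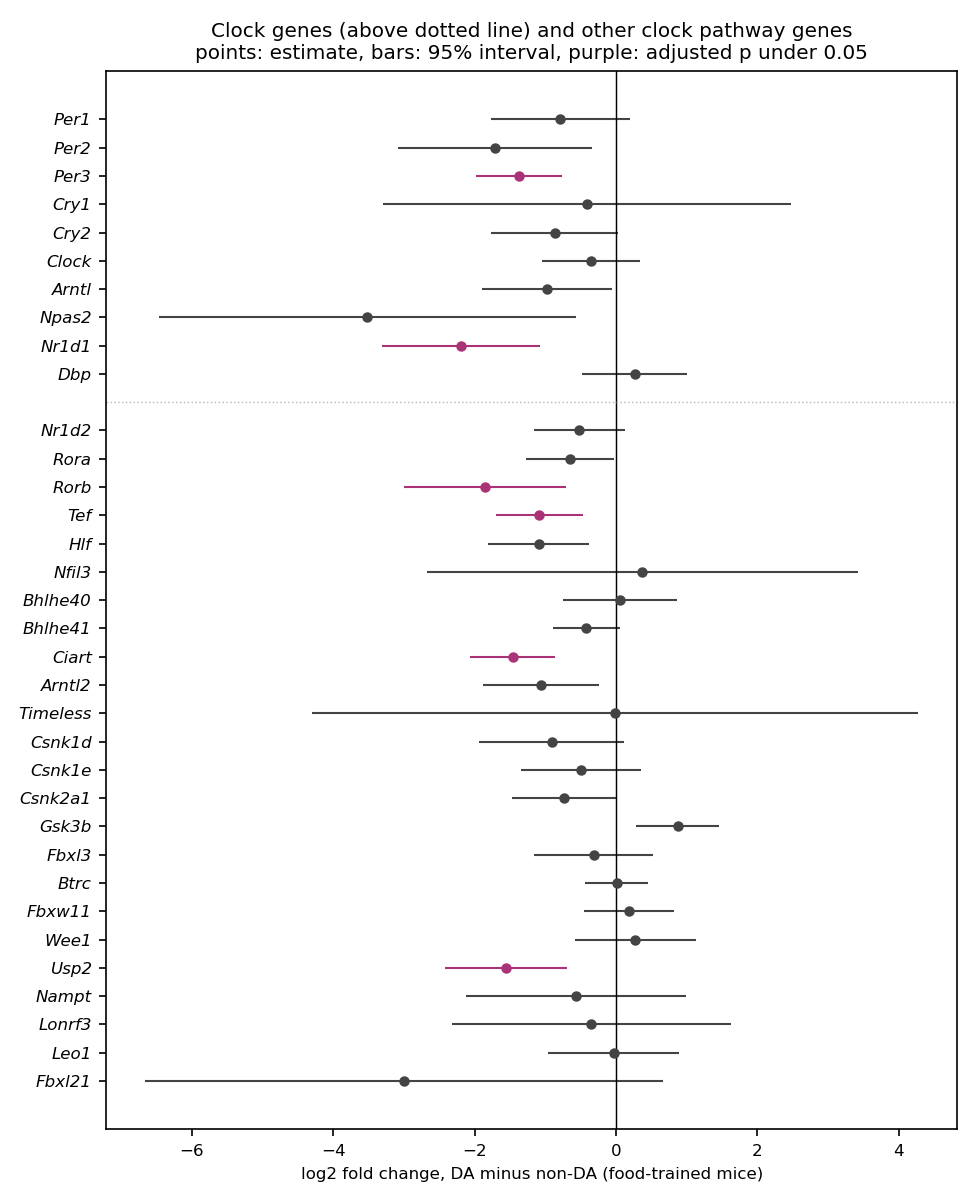
Log2 fold change of DA minus non-DA nuclei in food-trained mice (horizontal axis) for the 10 clock genes and the 24 further clock genes. Points are edgeR estimates, bars 95% intervals, and purple marks an adjusted p under 0.05. Per3 (-1.37) and Nr1d1 (-2.20) are the purple points among the 10, and Dbp (0.26) is the point to the right of 0 among them.

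Glucocorticoids and neuronal activity are inputs that raise Per1 and Per2 in many cells, so genes induced by each were read in the same fit. The non-DA libraries also held RNA of glia, and the part of glia in the differences of these genes was not tested. Of 8 glucocorticoid-responsive genes, 2 were lower in DA nuclei and 0 higher, with 7 negative estimates and a median log2 fold change of -1.18, where 9.17% of all genes were lower, 58.3% had a negative estimate and the median was -0.21. The kinase gene Sgk1 averaged 42.4 ± 22.4 against 195 ± 18.7 CPM (SD, n = 4 each) and fell by 2.19 on the log2 scale (adjusted p = 0.00775 in edgeR), and Zbtb16 fell by 3.64 (adjusted p = 0.0125), or by 4.71 without DA replicate 4. Of 12 activity-induced genes, 2 were lower and 0 higher, with 7 negative estimates and a median of -0.23, against the same shares of all genes. Arc, an activity-dependent synaptic gene, had 0.0691, 0, 0 and 1.33 CPM in DA nuclei against 53.0, 5.73, 28.5 and 47.9 CPM in non-DA nuclei (adjusted p = 0.0306 in edgeR), and Nr4a1 fell by 2.34 on the log2 scale (adjusted p = 0.0417). Arc lost its call without DA replicate 1, without non-DA replicate 1, 3 or 4, or in a fit of all 15 libraries (edgeR adjusted p from 0.0576 to 0.0905). Nr4a1 lost it without DA replicate 3 or 4 or without non-DA replicate 1, 3 or 4 (0.0582 to 0.141), and its log2 fold change was -2.94 without DA replicate 1.

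The second comparison asked how the clock genes of DA nuclei stood after the last cocaine maintenance session, relative to food training, in a fit of all 11 DA libraries. In edgeR 0 of the 10 passed, against 0.131% of 19060 genes tested, while 2 members (Dbp and Cry2) had an unadjusted p under 0.05, as had 11.6% of all genes. In the DESeq2 test 1 member passed, which was Dbp, as did 5.25% of the 18598 genes with an adjusted p. The estimates were negative for 5 of the 10 members and for 50.4% of all genes, with a median log2 fold change of 0.00 against -0.01 for all genes.

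Dbp had 14.4, 23.0 and 3.94 CPM in the maintenance libraries, each below the lowest food-trained DA library (30.7 CPM). The means were 13.8 ± 9.55 (SD, n = 3) and 47.5 ± 18.2 CPM (SD, n = 4), and groups that do not overlap with maintenance lower were found for 4.14% of all genes. The log2 fold change of Dbp was -1.79 (SE 0.53, 95% interval -2.93 to -0.64), with an adjusted p of 0.261 in edgeR and of 0.0196 in the DESeq2 test. Leaving out each library gave -2.42 (without maintenance replicate 2) to -1.34 (without maintenance replicate 3), with edgeR adjusted p from 0.115 to 0.465. Cry2 had 36.9, 39.6 and 18.6 CPM at maintenance, and its lowest value lay below and the others within the food-trained range of 25.99 to 85.9 CPM. Its log2 fold change was -0.94 (SE 0.42, adjusted p = 0.419 in edgeR). Of its exon bases, 295 of 6320 (4.67%) are shared with D930015M05Rik on the opposite strand, which averaged 1.21 CPM at maintenance and 5.05 CPM at food training. The overlapping gene of Dbp, Sphk2, ranged from 11.5 to 14.2 CPM at maintenance and from 4.35 to 22.5 CPM at food training. Nr1d1 differed between maintenance libraries more than between groups: 34.4 and 49.0 CPM in replicates 1 and 3 were above every food-trained DA library, and 3.05 CPM in replicate 2 was below all of them. Its log2 fold change was 1.66 (SE 0.78, 95% interval -0.02 to 3.34, adjusted p = 0.434 in edgeR), and it was 1.03 without maintenance replicate 3.

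For the other members the maintenance values ranged around or across those of food training. Per1 had 2.77, 17.8 and 6.85 CPM, of which replicates 1 and 3 lay below the food-trained range, with a log2 fold change of -1.28 (95% interval -2.84 to 0.27). Per2 had 46.4, 13.4 and 1.81 CPM, a spread that took in the whole food-trained range, and its estimate of 0.08 had a 95% interval from -1.79 to 1.95. Per3 was the steadiest, with 140.3, 147.4 and 164.8 CPM and a log2 fold change of 0.45 (95% interval -0.19 to 1.09). Cry1 had 12.8, 5.52 and 0 CPM, where the 0 of replicate 3 allows up to 0.0734 CPM, and a log2 fold change of -1.29 (95% interval -4.88 to 2.30). Clock had 178.3, 132.9 and 86.9 CPM, the first and the second of these above every food-trained DA library, with a log2 fold change of 0.61 (SE 0.36). Arntl had 33.2, 9.21 and 7.07 CPM and a log2 fold change of -0.08 (95% interval -1.61 to 1.45). Npas2 had 0.354, 0.147 and 6.29 CPM, so that its log2 fold change of 1.56 (95% interval -2.44 to 5.56) turned to -1.60 without maintenance replicate 3. Without maintenance replicate 1 the estimate of Per1 was -0.84, that of Per2 -1.32, that of Cry1 -2.40, that of Clock 0.36 and that of Arntl -1.08. Without maintenance replicate 2 that of Per1 was -2.25. Without food-trained replicate 4 that of Cry1 was 0.13, and without food-trained replicate 1 that of Per3 was 0.29. The edgeR adjusted p of these 7 members was 0.530 or higher.

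The oligodendrocyte markers summed to 1084 to 1695 CPM at maintenance and 1147 to 1990 CPM at abstinence, against 1694 to 2768 CPM at food training. At maintenance 1 of the 9, Olig1, passed and was lower, with 2 of its 3 libraries at 0, and 5 of the 9 did not overlap with food training and were lower. Of the 27 markers in the other 7 cell type lists, 2 did not overlap with food training and were lower (Ret and the astrocyte marker Aldh1l1, the latter at 10.5 against 47.1 CPM on average), beside 4.14% of all genes. Higher without overlap were the GABA neuron marker Gad2 (122.9 against 61.5 CPM) and the microglial marker P2ry12 (87.8 against 43.3 CPM). So were the oligodendrocyte precursor marker Pdgfra (20.3 against 3.83 CPM) and the astrocyte marker Slc1a3 (71.1 against 52.4 CPM). The share of all genes higher without overlap at maintenance was not computed, so these markers are given as values only. The summed level of each of these 7 lists overlapped between maintenance and food training. At abstinence every marker of the 8 lists overlapped with food training. The part of these cell types in the stage differences was not tested. Base composition also differed between the maintenance libraries and the other DA libraries. The slope of log2 CPM on the GC content of transcripts, taken over 8353 genes, was -0.0372, -0.0224 and -0.0377 (log2 units for each percent of GC) at maintenance, while the food-trained and abstinence DA libraries lay between -0.0167 and 0.0204. For non-DA replicate 2 it was -0.0248, below the range of 0.0209 to 0.0322 over non-DA replicates 1, 3 and 4. Dbp has the highest GC content of the 10 members (61.6%), followed by Per1 (59.4%), Nr1d1 (56.8%) and Cry2 (55.6%), and Clock the lowest (40.9%). Non-DA replicate 2 was the lowest of the 4 non-DA libraries for 7 members and for 28.9% of all genes. Its log2 ratio to the others had the same sign as the maintenance difference for 7 of the 10 and for 64% of all genes. Across the 10 genes, which share their libraries and are not replicates, Pearson's r of GC content was -0.41 with the maintenance difference and -0.59 with the ratio of non-DA replicate 2. With a spline on GC content as an offset, the log2 fold change of Dbp at maintenance was -1.17 (SE 0.49, adjusted p = 0.441 in edgeR) and that of Cry2 was -0.65. With a batch term shared by the maintenance libraries and non-DA replicate 2, a grouping taken from the data and not from the labels, Dbp was at -1.11 and Cry2 at 0.27, both with an edgeR adjusted p of 0.999925. Since every maintenance library carries this term, its size came from non-DA replicate 2 against the other 3 non-DA libraries alone and was carried over to DA nuclei, so each value given with the batch term for a comparison with maintenance rests on that 1 library. The GC correction left the calls of Per3 (-1.25, adjusted p = 0.0194) and Nr1d1 (-2.09, adjusted p = 0.0206) between DA and non-DA nuclei in place. Each maintenance library had a slope below every other DA library, so slope and stage cannot be told apart. The part of base composition in the differences of the clock genes was not tested.

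**Figure D3:**
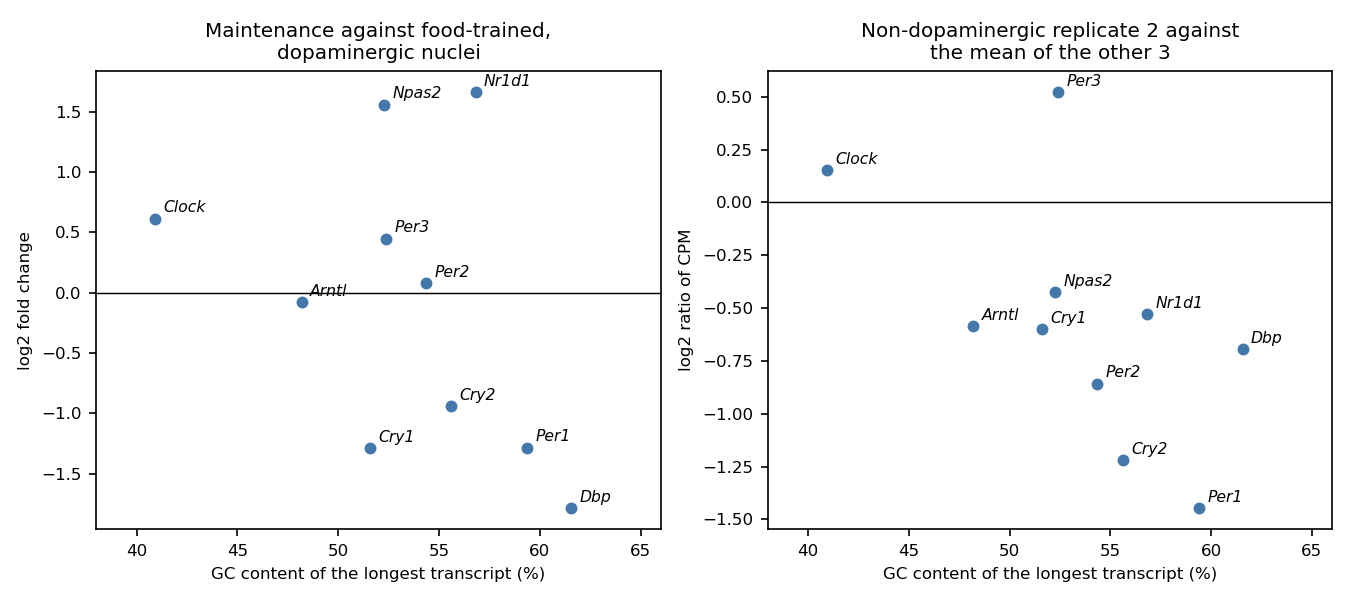
GC content of the longest transcript of each clock gene (horizontal axes, percent) against the log2 fold change of maintenance minus food-trained DA nuclei (left) and the log2 ratio of CPM in non-DA replicate 2 to the mean of the other 3 non-DA libraries (right). Each point is 1 gene; Dbp, at 61.6% GC, is the lowest point on the left (-1.79), and Per1, at 59.4% GC, the lowest on the right (-1.45). Nr1d1, at 56.8% GC, stands above 0 on the left and below 0 on the right.

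The third comparison set DA nuclei after abstinence against food training, using the same food-trained libraries as the second. In edgeR 0 of the 10 members passed, as did 0% of all genes tested, and in the DESeq2 test 0 of the 10 and 0.753% of all genes. An unadjusted p under 0.05 was reached by 1 member, Nr1d1, and by 4.3% of all genes. The estimate was negative for 3 members and for 46.9% of all genes, with a median log2 fold change of 0.10 against 0.04 for all genes. Nr1d1 had 52.0, 14.9, 25.7 and 21.0 CPM, each above the highest food-trained DA library (13.7 CPM), and groups that do not overlap with abstinence higher were found for 2.4% of all genes. Its log2 fold change was 1.65 (SE 0.74, 95% interval 0.06 to 3.25), with an edgeR adjusted p of 0.999974. Thra, whose exons overlap those of Nr1d1, averaged 77.2 ± 18.8 CPM at abstinence and 77.2 ± 25.2 CPM at food training (SD, n = 4 each).

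Dbp had 24.9, 31.2, 38.6 and 34.8 CPM at abstinence, within or just under the food-trained range, with a log2 fold change of -0.56 (95% interval -1.56 to 0.44), which was -0.30 without food-trained replicate 4. Per3 had 117.7, 88.0, 88.9 and 152.0 CPM and a log2 fold change of 0.01 with a 95% interval from -0.58 to 0.61, the narrowest interval of the 10 in this comparison. Clock had 91.0, 93.6, 77.9 and 122.3 CPM, and Cry2 had 40.1, 89.8, 82.0 and 74.3 CPM; their log2 fold changes were 0.15 and 0.23, with 95% intervals from -0.56 to 0.86 and from -0.59 to 1.05. For both, the abstinence libraries lay within the food-trained range or, in 1 library, slightly above it. Per1 had 36.3, 6.07, 33.9 and 26.6 CPM, of which replicate 2 was below and replicates 1 and 3 above the food-trained range. Per2 had 19.4, 12.5, 15.2 and 15.6 CPM, closer together than at either other stage. Cry1 had 6.63, 13.3, 18.2 and 23.2 CPM, with no library at 0. Arntl had 4.77, 27.6, 14.7 and 15.9 CPM, where replicate 1 was below and replicate 2 above the food-trained range. Npas2 had 0.591, 1.74, 2.36 and 6.82 CPM, and its log2 fold change of 1.91 had the widest interval of the 10, from -1.93 to 5.76; it was 2.95 without food-trained replicate 1 and 1.01 without abstinence replicate 4.

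Between abstinence and maintenance, which share no food-trained library in their own values but do share the fit, 0 of the 10 members passed in edgeR and 0 in the DESeq2 test, against 0.178% of all genes in edgeR and 4.26% in the DESeq2 test. An unadjusted p under 0.05 was reached by 2 members, Cry2 and Dbp, and by 9.92% of all genes. The estimate was negative for 5 members and for 47.2% of all genes. Cry2 and Dbp were higher in every abstinence library than in any maintenance library, as were 7.68% of all genes. Cry2 had a log2 fold change of 1.17 (SE 0.43, 95% interval 0.25 to 2.08, adjusted p = 0.429 in edgeR) and Dbp of 1.23 (SE 0.52, 95% interval 0.11 to 2.35, adjusted p = 0.488). Without maintenance replicate 3 that of Dbp was 0.78, and without maintenance replicate 2 it was 1.85. With the GC correction the values of Cry2 and Dbp were 0.87 and 0.62, and with the batch term -0.04 and 0.55. Nr1d1 had an estimate of -0.01 with a 95% interval from -1.68 to 1.67, and leaving out each library gave -0.52 to 0.62. When the 3 stages were tested together for any difference, 0 of the 10 members passed in edgeR and 0 in the DESeq2 test (0.0839% of all genes in edgeR and 2.35% in the DESeq2 test), and 2 (Dbp and Cry2) had an unadjusted p under 0.05, as had 7.85% of all genes.

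**Figure D4:**
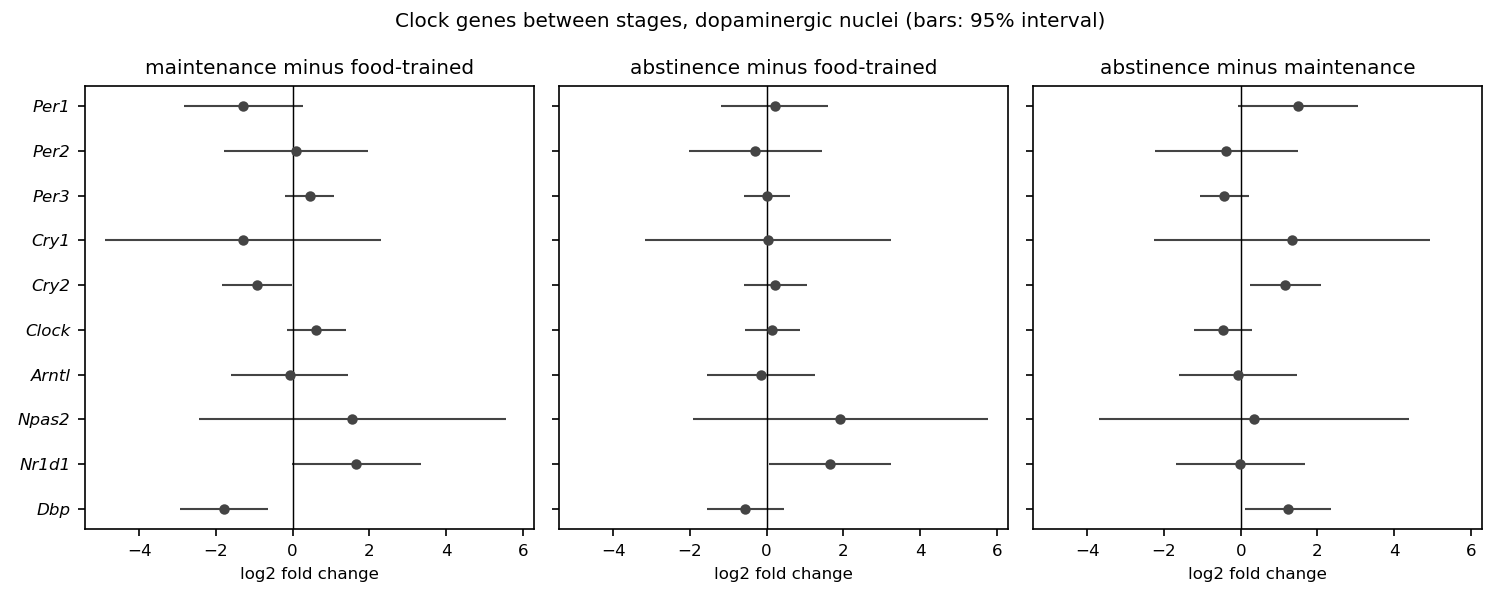
Log2 fold changes of the 10 clock genes between stages in DA nuclei (horizontal axes), for maintenance minus food-trained, abstinence minus food-trained and abstinence minus maintenance. Points are estimates from the fit of 11 DA libraries, bars 95% intervals. The bar of Dbp lies left of 0 in the first panel (-2.93 to -0.64) and that of Nr1d1 right of 0 in the second (0.06 to 3.25), and no member passed after adjustment.

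Of the 24 further clock genes, 0 passed in edgeR at maintenance against food training, at abstinence against food training or between abstinence and maintenance, and 1, 0 and 3 of them had an unadjusted p under 0.05 (0 passed in the DESeq2 test in each comparison). Over all genes an unadjusted p under 0.05 was reached by 11.6%, 4.3% and 9.92%, and 5.25%, 0.753% and 4.26% passed in the DESeq2 test. At maintenance against food training Csnk2a1, a gene for a casein kinase 2 subunit, had the lowest p, with 218 against 122 CPM on average, a log2 fold change of 0.83 and groups that did not overlap (adjusted p = 0.377 in edgeR). At abstinence against food training the lowest p was that of Csnk1d, a kinase gene that marks PER for degradation, with 69.8 against 37.6 CPM on average, a log2 fold change of 0.89 and groups that overlapped (adjusted p = 0.999974 in edgeR). It was 0.59 without food-trained replicate 3. Between abstinence and maintenance, Csnk1d again had the lowest p, with a log2 fold change of 1.39 (adjusted p = 0.385 in edgeR). With the batch term the value of Csnk2a1 at maintenance was 0.20 and that of Csnk1d between abstinence and maintenance was 0.82.

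Genes of the inputs to Per1 and Per2 also gave 0 calls between stages in the edgeR fit used throughout. Of the 8 glucocorticoid-responsive genes, 0, 1 and 1 had an unadjusted p under 0.05 at maintenance against food training, at abstinence against food training and between abstinence and maintenance, and 0, 1 and 1 passed in the DESeq2 test, where the shares of all genes were 11.6%, 4.3% and 9.92% for the unadjusted p and 5.25%, 0.753% and 4.26% for the DESeq2 test. Klf9 had the lowest p in the first of these (log2 fold change 0.42, or 0.16 without maintenance replicate 2, adjusted p = 0.735 in edgeR with all libraries) and Cdkn1a in the other two (-2.01 with adjusted p = 0.999974 and -1.81 with adjusted p = 0.338). The gene that passed in the DESeq2 test was Cdkn1a both times (adjusted p = 0.00747 and 0.0202). Over its 16 alternatives the log2 fold change of Klf9 at maintenance ranged from 0.0188 to 0.65. That of Cdkn1a between abstinence and maintenance ranged from -2.05 to -0.85 over 16 alternatives. Of the 11 activity-induced genes tested, 2, 0 and 4 had an unadjusted p under 0.05, and 2, 0 and 3 passed in the DESeq2 test, against the same shares of all genes. Jun, an AP-1 subunit, had 12.2, 17.4 and 12.3 CPM at maintenance against 58.4, 47.3, 35.3 and 40.6 CPM at food training, a log2 fold change of -1.70 with an adjusted p of 0.0900 in edgeR and of 8.18e-06 in the DESeq2 test. It also passed in edgeR when at least 10 counts in every library were required (adjusted p = 0.0431), and these were the 2 of its 16 alternatives in which it passed. With the batch term the value of Jun was -0.54 (adjusted p = 0.999925 in edgeR). Egr2 had the lowest p at abstinence against food training (log2 fold change -2.47, adjusted p = 0.999974 in edgeR), with 71.0 CPM in food-trained replicate 1 and 0 to 10.7 CPM in the other 3, and without replicate 1 its value was -0.42. Junb had the lowest p between abstinence and maintenance (1.86, adjusted p = 0.146 in edgeR and 0.00110 in the DESeq2 test), and was at 1.09 with the GC correction and -0.12 with the batch term. The median over the 11 genes was -1.05 at maintenance and -0.30 at abstinence, each against food training, where the medians of all genes were -0.01 and 0.04.

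Spread between libraries of a stage was wide for the clock genes in the maintenance group. The median over the 10 members of the SD of log2(CPM + 1) was 1.17 at maintenance, 0.70 at food training and 0.62 at abstinence in DA nuclei and 0.39 in non-DA nuclei, beside medians over all 19060 genes of the stage fit of 0.59, 0.68, 0.49 and 0.29. The genes of the stage fit were not matched to the members for level, and maintenance had 3 libraries against 4 in each other group. At maintenance Per2 (SD 2.05), Nr1d1 (1.97) and Cry1 (1.95) varied most and Per3 (0.12) least. Across the 11 DA libraries, 6 pairs of members were correlated on the log scale, and 0 passed a two-sided permutation test after adjustment. The lowest p belonged to Dbp and Nr1d1, with Pearson's r = -0.49 (permutation p = 0.122, adjusted 0.594) and Spearman's rho = -0.41 (permutation p = 0.212, adjusted 0.606). Without the 2 libraries farthest from the median of Dbp, r was -0.38, and on deviations from the stage means it was -0.56. For Per1 with Per2 r was -0.07 and rho -0.03 (permutation p = 0.844 and 0.946), with r at 0.44 without the 2 libraries farthest from the median of Per1 and -0.21 on deviations from the stage means, so that its sign rested on those libraries. For Arntl with Dbp r was 0.30 and rho 0.28 (permutation p = 0.382 and 0.404), with r at 0.58 without 2 libraries and 0.37 on deviations. For Arntl with Nr1d1 r was -0.14 and rho -0.17 (permutation p = 0.684 and 0.614), with r at -0.06 and -0.08 in the same checks. The adjusted p of the 6 pairs was between 0.594 and 0.946.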

How the data were processed

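Whole-number read counts per gene, as the authors deposited them for 15 libraries, are the unit used throughout; a second table, named as normalized, held the same raw counts in 10 columns (0 cells differed) and was not used. Per the submitters' processing notes, Trim Galore 0.6.7, cutadapt 1.18, STAR 2.7.10a, StringTie 2.1.5 and DESeq2 1.38.3 were run, with builds mm10 and GRCm38; the annotation and any use of strand are not given in the sources used here. Libraries were made with a low-input kit that amplifies cDNA, with no molecular identifiers, so floors and intervals from counts cover counting error only.

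The main analysis used edgeR 4.0.16 in R 4.3.3 (filterByExpr, TMM factors, quasi-likelihood F-test, two-sided, Benjamini-Hochberg adjusted p under 0.05 over all genes). The 8 food-trained libraries gave the DA against non-DA comparison and the 11 DA libraries those between stages. Printed CPM use TMM factors of all 15 libraries; 95% intervals use the degrees of freedom of the fit. Each library pools 2 mice, and p-values measure the spread between such pools. DESeq2 1.42.0, other scalings and filters, a GC spline, a batch term, a replicate block and leaving out each library were the alternatives. Scripts were tested on simulated data.

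The members and gene lists were chosen with earlier results of these data known. A gene of the further clock genes' list is not reported here and is not in its counts. All members are described; the further clock genes, glucocorticoid-responsive genes and activity-induced genes are given by counts, naming genes past the threshold or, where none passed, the gene with the lowest p; genes that overlap a member, Gsk3b and the count ratio were added after their values were seen. GC content came from the longest transcript in GENCODE and covered 86.9% and 87.3% of genes in the 2 fits.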

Additional observations from a re-analysis of the deposited data

How the results depend on the processing

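Between DA and non-DA nuclei, 2 clock genes passed in the main test. The DESeq2 test called 4, the replicate block 1 (Per3; the adjusted p of Nr1d1 was 0.0880), the fit of all 15 libraries 1, and leaving out each library between 1 and 3. At maintenance against food training the count of 0 became 1 in the DESeq2 test and stayed 0 in the other alternatives, and in the remaining stage comparisons it was 0 in each alternative. Over all genes, calls between DA and non-DA nuclei ranged from 775 (replicate block) to 3868 (DESeq2 test) around 2534, at maintenance against food training from 0 to 977 around 25, and between abstinence and maintenance from 1 to 793 around 34. For any difference among stages the range was 0 to 358 around 16. For abstinence against food training, 0 genes passed in edgeR and 140 in the DESeq2 test. Same-numbered libraries share only a number by the labels: their deviations correlated at 0.0349 to 0.0876 between DA and non-DA libraries (6 of 8 libraries matched their own number best, a hint from the data and not the design) and at -0.0753 to 0.0335 between stages, where 2 of 7 (maintenance and food training) and 0 (the other pairs) matched. With the block, Rorb, Tef, Usp2 and Nr4a1 also lost their calls (adjusted p from 0.0604 to 0.112).

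Log2 fold changes turned sign as follows, each short of the threshold, and the cause was not tested. Per3 at abstinence against food training was -0.0341 with DESeq2 size factors or the DESeq2 test, -0.0127 with upper quartile scaling, -0.0189 with at least 10 counts in every library and -0.00589 with the GC correction. Nr1d1 at abstinence against maintenance was 0.0082 with no filter, 0.0522 with the replicate block and 0.00696 with 2 stages fitted. At maintenance against food training the replicate block gave -0.0809 for Per2 and 0.0613 for Arntl, and the batch term 0.15 for Per1, -0.0947 for Per3, 0.27 for Cry2 and 0.49 for Arntl. At abstinence against maintenance Arntl was 0.0826 with the GC correction, and the batch term gave 0.11 for Per3, -0.0374 for Cry2, -0.0405 for Npas2 and -0.12 for Junb. Leaving out each library turned the sign of these log2 fold changes, none of them past the threshold: for DA against non-DA nuclei, Cry1 (-1.84 to 0.0222) and Dbp (-0.0108 to 0.46). For maintenance against food training, Per2 (-1.32 to 0.62), Arntl (-1.08 to 0.28), Cry1 (-2.40 to 0.13) and Npas2 (-1.60 to 2.60). For abstinence against food training, Per3 (-0.18 to 0.27), Cry1 (-0.37 to 1.46), Clock (-0.0263 to 0.35), Arntl (-0.55 to 0.15), Per2 (-0.65 to 0.20), Cry2 (-0.0212 to 0.43) and Per1 (-0.0224 to 0.53). For abstinence against maintenance, Per2 (-0.92 to 1.02), Arntl (-0.47 to 0.93), Npas2 (-0.55 to 3.51) and Nr1d1 (-0.52 to 0.62). At the depth of these libraries Npas2 had 0 to 112 counts per food-trained DA library.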
